A study of Mus musculus with 23 samples.

Results

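The 34 genes described here are markers and regulators of endothelium, the cell layer that lines blood and lymph vessels. They were chosen by name, as the array rows whose gene name was on a list of endothelial genes, and all 34 were found among 36095 gene names. Each gene was read from its brightest probe. They were sorted by role into 6 genes of adhesion and junctions, 6 receptors of VEGF and angiopoietin signalling with a phosphatase that acts on them, 10 other receptors and surface proteins, 6 secreted or signalling proteins and 6 regulators of transcription.

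The study measured RNA from mouse muscle, muscle cell cultures and embryonic stem cells on 1-colour arrays, to set beside maps of DNA methylation. Quadriceps was sampled 3 times from male mice, replicate 1 of strain C57BL/6J and replicates 2 and 3 of mixed 129Sv/C57BL/6J background. Myotubes were made by moving male C57BL/6J primary myoblasts to low horse serum on Matrigel for 1, 2 or 4 days. The myoblasts themselves, grown on collagen with bFGF, were sampled at passage 0 and at passages 8 to 10, and each of these groups had 3 samples. The stem cell lines were cGR8 (male, 129Sv), RD1 (male, 129X1/SvJ) and E14tg2 (129/Ola, sex not given in the labels), the last on 2 arrays averaged to 1 sample. A single skeletal muscle of a male NOD/ShiLtj mouse had no replicate and entered no comparison. Quadriceps differs from the cultures in tissue, growth conditions and partly in strain, and these cannot be told apart. Whole muscle holds vessels, nerves, blood and connective tissue beside fibres, while a culture holds only what was isolated and grew, and in such bulk samples fewer cells of a type and less RNA per cell cannot be told apart.

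Endothelial cells are held together by junctional proteins such as Cdh5 (VE-cadherin), Cldn5 and Pecam1, and they respond to VEGF through Kdr and Flt1 and to angiopoietins through Tek. Transcription factors of the ETS and SOXF families, here Erg and Sox7, Sox17 and Sox18, drive much of the programme. Skeletal muscle is densely supplied with capillaries, whose cells carry Gpihbp1, the protein that holds lipoprotein lipase at the vessel wall. Several of these genes are also active outside vessels: Pecam1 and Tal1 in blood-forming cells, Eng in stromal cells, Icam1 in many cell types under inflammation.

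Levels are log2 of the processed signal minus the 75th percentile of the same array, so that 0 is the signal of a spot at that percentile. Levels of different genes come from different probes and are not compared with each other. A spot is above background where the scanner software marked it as well above background. Between 39.1% and 60.1% of spots passed on an array. The 75th percentile signal was 87.7 on passage 8 to 10 replicate 1, against 208 to 765 on the others. That sample correlated with the other two of its group at r = 0.896 and 0.869 across genes, against 0.968 between those. Its faint spots, and those of day 4 myotube replicate 1, read higher on this scale because the lowest signal above background lay at -1.87 and -2.53, and those results were also computed without them. The 13 lower bounds of members against day 4 myotubes became 1.47 times as high without the dim replicate. The groups carried the markers of their labels: Acta1, the skeletal muscle actin, stood at 10.80 to 11.28 in quadriceps, Myod1, the myogenic determination factor, at 5.64 to 6.38 in the myoblasts, and Pou5f1, the pluripotency factor, at 5.34 to 6.35 in the stem cells.

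A pair of probes is shown because Tek and its paralogue Tie1, which differ below in stem cells, were read on matching stretches of their coding ends. Capitals mark the bases that are identical in the best alignment without gaps, 39 of 57 aligned bases (68.4%). The positions on build mm9 are chr4:118144132-118144191 on the minus strand for Tie1 and chr4:94540624-94540683 on the plus strand for Tek.
Tie1: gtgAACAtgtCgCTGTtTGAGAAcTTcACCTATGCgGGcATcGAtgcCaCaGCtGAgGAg
Tek: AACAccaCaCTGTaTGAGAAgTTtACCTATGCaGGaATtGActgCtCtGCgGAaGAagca

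Promoters of 4 members with strongly different levels in quadriceps and day 4 myotubes follow, from 250 bases before to 50 after the start, from RefSeq on GRCm38.p6. Capitals mark the ETS-type core sequences AGGAAG and CCGGAA on either strand, which do not overlap here.
Flt1, chr5:147725962-147726261, minus strand: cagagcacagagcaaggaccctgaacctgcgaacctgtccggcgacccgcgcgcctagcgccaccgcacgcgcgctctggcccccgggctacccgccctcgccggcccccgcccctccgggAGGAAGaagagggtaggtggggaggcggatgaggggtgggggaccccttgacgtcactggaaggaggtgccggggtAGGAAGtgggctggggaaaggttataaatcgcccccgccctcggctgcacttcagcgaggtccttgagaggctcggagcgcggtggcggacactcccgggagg
Robo4, chr9:37401722-37402021, plus strand: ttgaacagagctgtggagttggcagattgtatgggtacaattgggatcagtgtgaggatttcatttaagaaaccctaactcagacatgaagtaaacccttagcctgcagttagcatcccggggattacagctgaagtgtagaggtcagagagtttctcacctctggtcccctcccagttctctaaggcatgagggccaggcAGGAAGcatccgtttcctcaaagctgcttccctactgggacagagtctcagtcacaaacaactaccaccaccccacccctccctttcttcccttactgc
Tie1, chr4:118489800-118490099, minus strand: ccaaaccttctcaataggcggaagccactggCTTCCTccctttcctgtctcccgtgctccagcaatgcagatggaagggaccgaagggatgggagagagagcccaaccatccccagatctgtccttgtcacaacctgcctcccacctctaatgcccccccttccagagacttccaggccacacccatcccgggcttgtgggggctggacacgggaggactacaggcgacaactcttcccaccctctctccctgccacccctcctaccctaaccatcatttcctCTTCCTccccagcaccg
Emcn, chr3:137340828-137341127, plus strand: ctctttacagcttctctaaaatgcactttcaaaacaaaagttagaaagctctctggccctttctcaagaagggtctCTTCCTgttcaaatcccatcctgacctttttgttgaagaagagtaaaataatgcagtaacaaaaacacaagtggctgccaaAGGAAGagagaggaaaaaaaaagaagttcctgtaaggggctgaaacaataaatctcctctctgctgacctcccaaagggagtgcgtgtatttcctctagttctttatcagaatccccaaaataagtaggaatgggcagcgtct
The Flt1 promoter held 29 CpG dinucleotides, against 7 in Tie1 and 2 each in Robo4 and Emcn, while the median of all 32851 promoters in the table was 7. AGGAAG occurred 2 times in Flt1, Tie1 and Emcn and once in Robo4, and 35.3% of all promoters held it at least once. CCGGAA, found in 14.9% of all promoters, was absent from these 4 and present in the promoters of Icam1 and Kdr. Of the 21 promoters listed for members, 42.9% held AGGAAG and 9.5% held CCGGAA. Those of Cldn5, Clec14a, Tek and Tal1, among others, held neither. The SOX-type cores ACAATG and ACAAAG occurred in 12.6% and 18.7% of all promoters and in 4.8% and 14.3% of the member promoters. Neither occurred in the 4 promoters shown. Only 16 of the 34 members (47.1%) had a promoter in the table, so a check of these features over the whole set is void.

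Nearly the whole set was present in muscle. In quadriceps 32 of the 34 genes were above background on every sample, while 47.9% of all gene names were. The exceptions were Icam1, above background in 1 of 3 samples, and Flt4, the VEGF receptor of lymphatic vessels, above background in none of the 7 groups. In culture the count was 21 in stem cells, 19 in passage 0 myoblasts and 10 in myoblasts of passages 8 to 10. In myotubes of days 1, 2 and 4 it was 13, 12 and 9. The shares of all gene names in the same order were 56.5%, 55.6%, 43.1%, 51.6%, 47.8% and 44.35%. The counts in stem cells and passage 0 myoblasts lay near those shares. Passage 8 to 10 and day 4 each include an array with a high detection limit. The median level of the 34 genes lay between 0.86 and 1.91 on the quadriceps samples, against -2.77 or lower on each myoblast and myotube sample and -2.59 or lower on each stem cell sample. For 25 genes the lowest quadriceps sample was above the highest of the 18 culture samples. That count was not made over all genes, so it cannot show whether the set stands out in this.

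**Figure D1:**
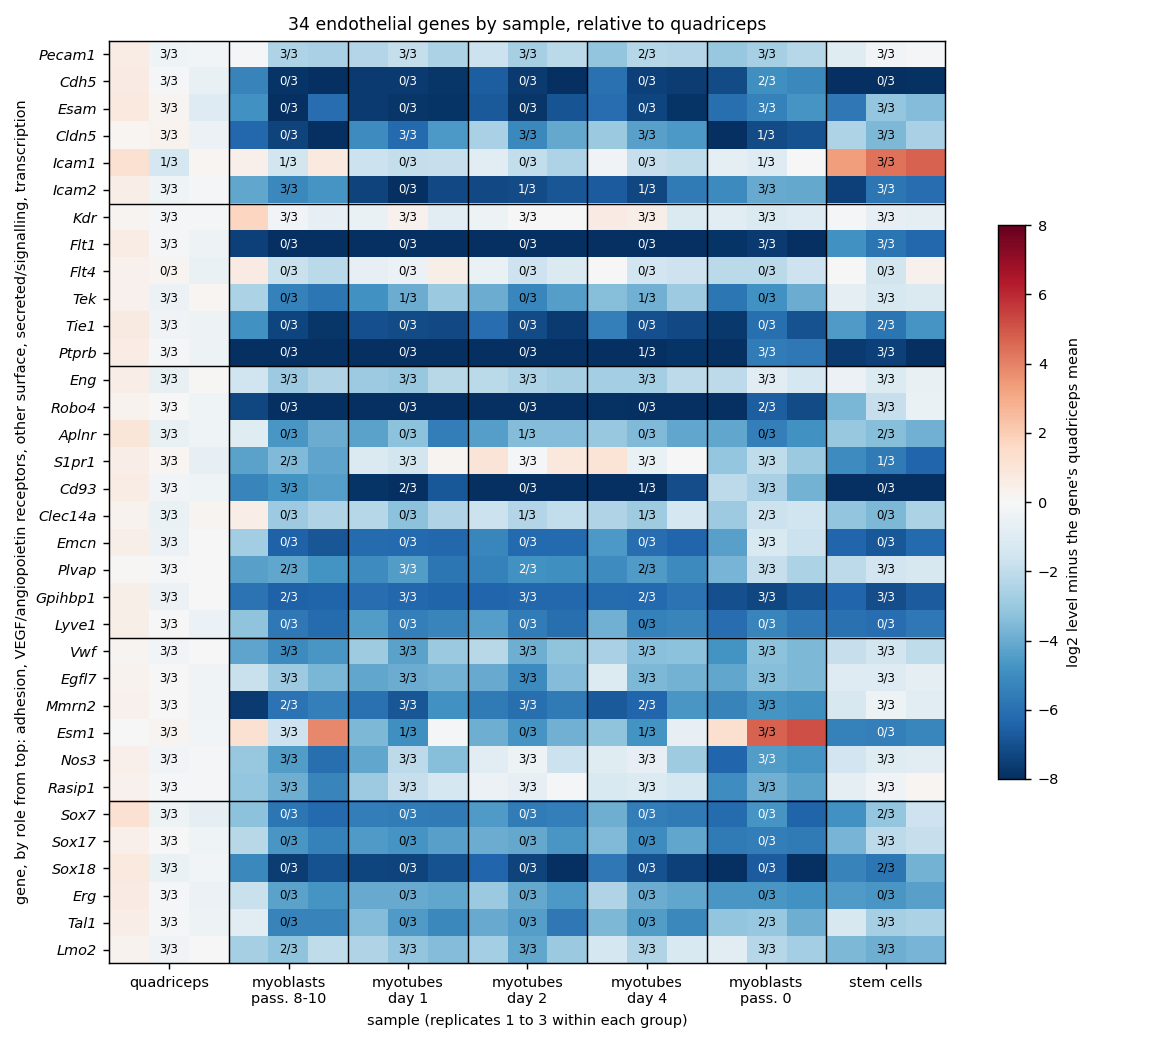
Heat map of the 34 genes (rows, by role) in the 21 samples of the 7 groups (columns, replicates 1 to 3 in each). Colour is the log2 level minus the gene's own quadriceps mean, and the printed fraction is the number of samples of the group above background. Most rows are blue in every culture, while Kdr and S1pr1 stay pale in myotubes, Icam1 is red in stem cells and Esm1 is red in passage 0 myoblasts.

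Against day 4 myotubes, 27 of 32 tested members rose in quadriceps and none fell. Genes entered the test when all samples of either group were above background. A call needed a limma adjusted p below 0.05 together with a 2-fold difference. Only 9 members were above background on every day 4 sample, so most entered through quadriceps, which makes falls unlikely. With signal required on every sample of both groups, 5 of the 9 were called higher, as were 1447 of all genes. How many of all genes were tested in that way is not given here. The 5 of 9 therefore cannot show whether the set stands out. The shares over all genes also cover genes that entered through myotubes alone. The next 2 comparisons share this limit, with 19 members above background on every passage 0 sample and 21 on every stem cell sample. Of all 18550 genes tested, 31.0% were called, 14.7% higher and 16.4% lower, with a median log2 change of -0.06. The members' median was 4.32, or 3.12 with the genes that no myotube sample showed set at their lower bounds. Such a bound sets the quadriceps mean against the mean of the lowest signal above background on each array of the other group, or the probe's own signal where higher, and is written as "at least". On slides 1, 2 and 3 the members' median was 4.90, 3.49 and 4.27. In 30 of the 32 every quadriceps sample was above every myotube sample, as in 22.5% of all genes tested, and in none of them was every quadriceps sample below, as in 24.3%. Without the dim day 4 replicate 1 the count of members called stayed at 27.

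Against passage 0 myoblasts 30 of 32 tested members rose in quadriceps and 1, Esm1, fell. Among all 20939 genes tested 44.9% were called, 22.9% higher and 22.1% lower. Every quadriceps sample was above every passage 0 sample for 31 members, as in 36.7% of all genes tested, and below for 1, as in 32.4%. The members' median was 4.77, or 3.94 with bounds, against 0.15 over all genes tested. Kdr alone among the tested members passed in neither direction.

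Against stem cells 23 of 33 tested members rose and 1, Icam1, fell, with a median of 3.18, or 2.90 with bounds. Of all 21849 genes tested 54.8% were called, 25.4% higher and 29.5% lower, and their median was -0.06. The groups did not overlap in 28 members higher in quadriceps and in 1 lower, as in 33.8% and 37.9% of all genes tested. The 9 that were not called were Pecam1, Kdr, Tek, Eng, Robo4, Egfl7, Mmrn2, Nos3 and Rasip1. The 3 comparisons share the quadriceps samples and are not independent of each other.

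**Figure D2:**
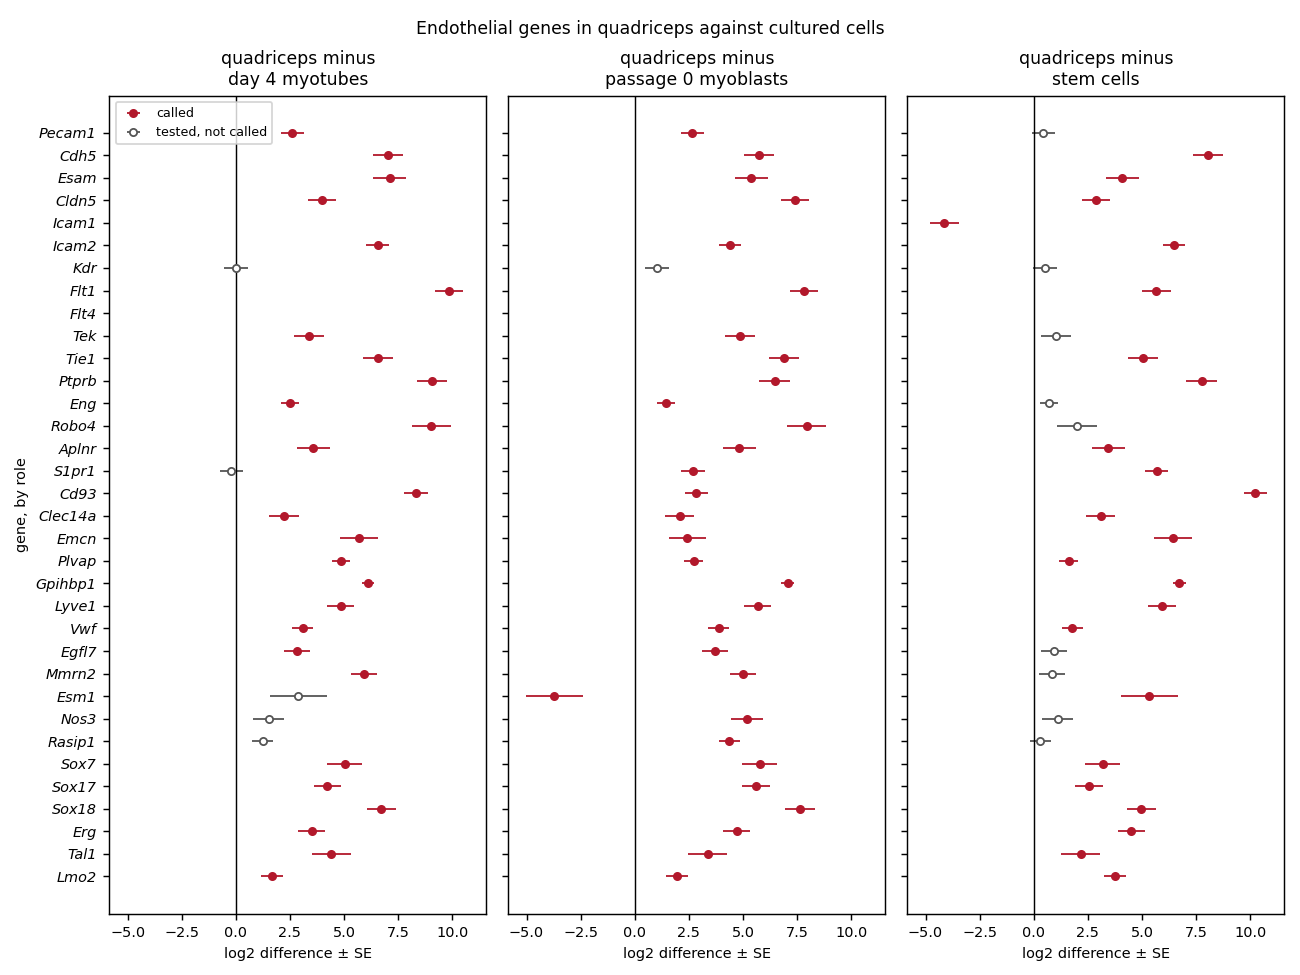
Log2 difference ± SE of each tested member, quadriceps minus day 4 myotubes (left), passage 0 myoblasts (middle) and stem cells (right), n = 3 in each group, genes by role from top to bottom. Filled points were called and open points were tested but not called; a gene without a point was not tested. Points lie right of 0 except Icam1 against stem cells, Esm1 against passage 0 and, by less than its error, S1pr1 against day 4.

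Among the adhesion genes, all 5 tested rose in quadriceps over day 4 myotubes, while 14.7% of all genes tested did. Cdh5, the cadherin of endothelial junctions, had levels of 2.21, 1.47 and 0.93 in quadriceps, and no myotube or stem cell sample was above background. The quadriceps samples stood apart from every culture sample, and the level was at least 36.1-fold higher than in day 4 myotubes (adjusted p = 6.2e-07) and at least 72.0-fold higher than in stem cells (adjusted p = 2.9e-08). In passage 0 myoblasts Cdh5 was above background in 2 of 3 samples, at -3.35 and -3.63 in replicates 2 and 3, and quadriceps was higher by 5.74 ± 0.70 (SE) on the log2 scale (adjusted p = 3.1e-06).

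Esam, an adhesion molecule of endothelial tight junctions and platelets, had levels of 2.06, 1.48 and 0.25 in quadriceps, against -4.44, -1.82 and -2.20 in stem cells. The difference was 4.08 ± 0.75 (adjusted p = 1.6e-04), without overlap, and cGR8 was the lowest of the lines. Icam2, an adhesion ligand of leukocytes on resting endothelium, averaged 3.13 ± 0.45 in quadriceps (SD, n = 3), against -3.42 ± 0.82 in day 4 myotubes and -3.34 ± 0.89 in stem cells. Icam2 was 93.4-fold higher in quadriceps than in day 4 myotubes, where 1 of 3 samples was above background (adjusted p = 3.8e-08).

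Pecam1, the platelet and endothelial adhesion molecule, and Icam1, an adhesion molecule induced by cytokines, read differently from the rest against stem cells. Pecam1 had levels of 0.32, -0.63 and -0.51 in quadriceps, against -1.22, -0.48 and -0.40 in stem cells. The groups overlapped, and the difference of 0.43 ± 0.53 did not pass (adjusted p = 0.51). Icam1 was at -3.06, -5.67 and -4.12 in quadriceps and only the first was above background, against -0.94, 0.05 and 0.41 in stem cells. It fell by 4.12 ± 0.68 on the log2 scale (adjusted p = 5.1e-05).

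Flt1, the VEGF receptor that also acts as a decoy, was high in quadriceps and low in each culture. Its levels were 4.86, 4.11 and 3.86 in quadriceps, against -0.57, -1.54 and -2.03 in stem cells and -3.57, -3.38 and -3.68 in passage 0 myoblasts. No sample of day 4 myotubes was above background. Quadriceps was at least 241-fold higher than day 4 myotubes (adjusted p = 7.2e-09), 227-fold higher than passage 0 myoblasts (adjusted p = 4.1e-08) and 50.6-fold higher than stem cells (adjusted p = 8.9e-07).

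Ptprb, the phosphatase that acts on Tek and on endothelial junctions, had levels of 4.99, 4.23 and 4.01 in quadriceps, against -3.63, -1.18 and -1.33 in passage 0 myoblasts and -3.25, -3.07 and -3.70 in stem cells. Every quadriceps sample was above every culture sample, and the log2 difference was 6.46 ± 0.71 from passage 0 (adjusted p = 8.7e-07) and 7.75 ± 0.71 from stem cells (adjusted p = 5.0e-08).

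The angiopoietin receptor Tek and the related orphan receptor Tie1, whose probes are shown above, were both higher in quadriceps than in passage 0 myoblasts, where no sample showed either gene. The bound was at least 12.4-fold for Tek (adjusted p = 1.6e-05) and at least 45.8-fold for Tie1 (adjusted p = 3.0e-07). In stem cells they parted. Tek had levels of -0.88, -1.70 and -1.08 in quadriceps, against -1.92, -2.50 and -2.35 in stem cells, and the difference of 1.03 ± 0.69 did not pass (adjusted p = 0.21), though it did in a fit of only both groups (adjusted p = 0.0204). Tie1 had levels of 1.39, 0.37 and 0.25 in quadriceps, against -3.88, -5.18 and -4.05 in stem cells, where RD1 was not above background, and the difference was 5.04 ± 0.69 (adjusted p = 6.6e-06). Whether the Tek and Tie1 differences themselves differ was not tested.

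Kdr, the main signalling receptor of VEGF, depended on the probe. Its brightest probe, at chr5:76330395-76330454 on mm9, had levels of 3.57, 3.26 and 3.17 in quadriceps, against 3.97, 3.80 and 2.20 in day 4 myotubes, with a difference of 0.01 ± 0.54 (adjusted p = 0.99). Its other probe, at chr5:76329309-76329368, had 2.98, 2.16 and 1.61 in quadriceps and was above background in no day 4 myotube and in no myoblast of passages 8 to 10. On that probe quadriceps was higher than day 4 myotubes (adjusted p = 4.8e-08), whose signal only bounds the level there. It exceeded passage 0 myoblasts, with 1 of 3 samples above background, by 7.17 ± 0.64 (adjusted p = 7.8e-08) and stem cells by 4.83 ± 0.64 (adjusted p = 3.9e-06). These values come from a fit in which each probe stood on its own, chosen after the disagreement was seen. Both probes carry the same Kdr accession in the files, and what sets them apart was not tested.

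**Figure D3:**
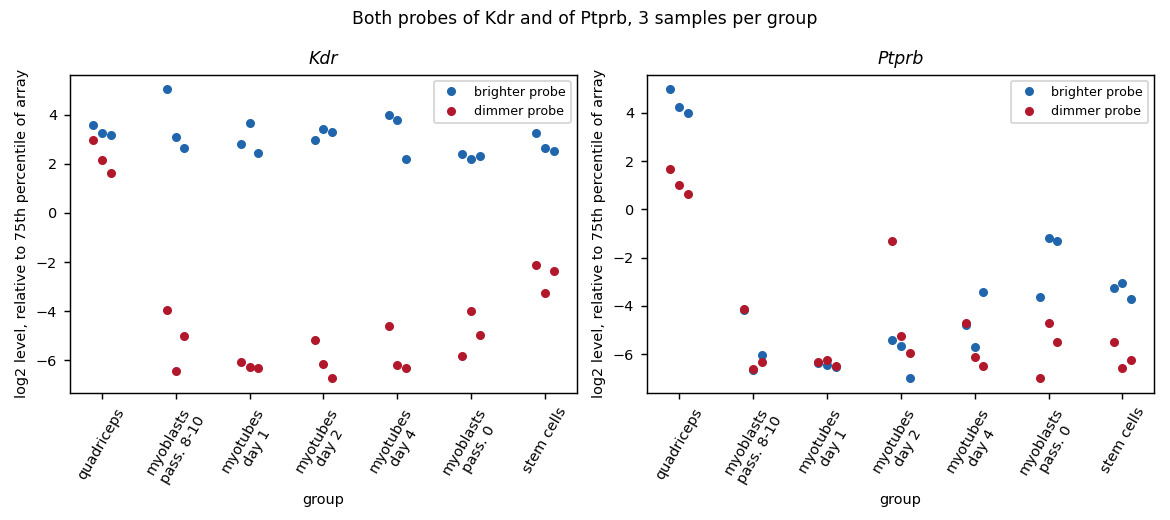
Log2 level of both probes of Kdr (left) and of Ptprb (right) in each of 3 samples per group, blue for the brighter and red for the dimmer probe. The brighter Kdr probe lies between 2.19 and 5.04 in all samples, while the dimmer lies above 0 only in quadriceps; both Ptprb probes are highest in quadriceps, and the dimmer one stands at -1.33 in 1 day 2 myotube sample.

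Of the 8 members with 2 probes, Nos3, Plvap, Ptprb and Sox17 kept the direction of each quadriceps comparison on their dimmer probe where it could be tested. The second probes of Clec14a, Erg and Flt1 were above background in 0, 1 and 2 of the 3 quadriceps samples and gave no test there.

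The other receptors and surface proteins were the largest group. Of these, 9 of 10 rose in quadriceps over day 4 myotubes, all 10 over passage 0 myoblasts and 8 of 10 over stem cells. Among all genes tested 14.7%, 22.9% and 25.4% rose in those comparisons. Gpihbp1 averaged 3.92 ± 0.45 in quadriceps, against -2.18 ± 0.15 in day 4 myotubes, -3.14 ± 0.20 in passage 0 myoblasts and -2.80 ± 0.38 in stem cells. Its cultures were nearly flat, between -3.35 and -1.99, and the quadriceps difference was 68.7-fold from day 4, where 2 of 3 samples were above background (adjusted p = 4.2e-10), 134-fold from passage 0 (adjusted p = 4.9e-11) and 105-fold from stem cells (adjusted p = 7.9e-12). Lpl, the lipase that Gpihbp1 carries, was 55.9-fold higher in quadriceps than in day 4 myotubes (adjusted p = 1.2e-07).

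Robo4, a guidance receptor that steadies vessels, averaged 3.44 ± 0.32 in quadriceps (SD, n = 3), and no day 4 myotube sample was above background, which puts quadriceps at least 135-fold above them (adjusted p = 6.4e-07). The stem cell lines differed widely among themselves, at -0.19 in cGR8, 1.59 in RD1 and 2.91 in E14tg2, and the difference of 2.00 ± 0.91 from stem cells did not pass (adjusted p = 0.067). With all samples it passed under normexp background correction, quantile normalization, the authors' values, array weights and a fit of only both groups (1.72 to 2.08, adjusted p = 0.00126 to 0.0365), and it also passed without E14tg2 (2.74, adjusted p = 0.026).

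Cd93, a lectin-like receptor of endothelial and myeloid cells, ordered the groups differently from Robo4. It had levels of 4.63, 3.85 and 3.72 in quadriceps, against 1.97, 1.45 and 0.26 in passage 0 myoblasts, and no stem cell sample was above background. Quadriceps was 7.18-fold higher than passage 0 (adjusted p = 3.2e-04) and at least 416-fold higher than stem cells (adjusted p = 6.8e-11). Clec14a, a related lectin-like receptor, was a weak signal in quadriceps at -2.05, -2.83 and -2.09, and its calls against day 4 and against passage 0 were lost in some alternatives. Without day 4 replicate 2 its adjusted p was 0.069, without quadriceps replicate 1 or 3 it was 0.052, and against passage 0 it was 0.088 without passage 0 replicate 1, 0.055 without quadriceps replicate 1 and 0.051 without quadriceps replicate 3. With normexp and with the authors' values the day 4 difference was 0.72 and 0.75, under 2-fold.

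Emcn, a sialomucin of capillaries and veins, had levels of 0.39, -0.56 and -0.08 in quadriceps, against -4.42, -1.29 and -1.83 in passage 0 myoblasts. It was above background in no other culture. The difference from passage 0 was 2.43 ± 0.87 (adjusted p = 0.029), and the call was lost without passage 0 replicate 1 (1.48, adjusted p = 0.19), without quadriceps replicate 1 (adjusted p = 0.089) and without quadriceps replicate 3 (adjusted p = 0.061). Plvap, the protein of fenestral diaphragms, averaged 1.96 ± 0.16 in quadriceps, against -2.90 ± 0.31 in day 4 myotubes, a 29.2-fold difference (adjusted p = 1.4e-07). Lyve1, a hyaluronan receptor of lymphatic vessels and of some macrophages, was above background in every quadriceps sample and in no culture sample, and was at least 6.94-fold higher than in day 4 myotubes (adjusted p = 1.1e-05).

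Eng, a TGF-beta co-receptor, and S1pr1, the sphingosine 1-phosphate receptor, were present in cultures as well. Eng had levels of 2.36, 1.22 and 1.94 in quadriceps, against -0.22, 1.02 and 0.42 in passage 0 myoblasts and 1.38, 0.76 and 1.26 in stem cells, and was called higher only over day 4 (5.75-fold, adjusted p = 1.2e-04) and passage 0 (2.71-fold, adjusted p = 0.0083). The passage 0 call was lost without passage 0 replicate 1 (adjusted p = 0.057). S1pr1 had levels of 1.54, 1.16 and 0.39 in quadriceps, against 2.14, 0.48 and 1.07 in day 4 myotubes, and the groups overlapped (adjusted p = 0.82). Aplnr, the apelin receptor, stood at -0.02, -1.61 and -1.32 in quadriceps, at least 6.28-fold above day 4 myotubes (adjusted p = 0.0013), where no sample was above background.

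Among secreted and signalling members, 3 of 6 rose in quadriceps over day 4 myotubes, while 14.7% of all genes tested did. Over stem cells 2 of 6 rose, while 25.4% of all genes tested did. For all 6 every quadriceps sample was above every day 4 sample, as in 22.5% of all genes tested. Egfl7, a protein that endothelium lays into the vessel wall, had levels of 6.01, 5.72 and 5.43 in quadriceps, against 4.64, 2.14 and 1.94 in day 4 myotubes (7.02-fold, adjusted p = 0.0013) and 4.69, 4.71 and 4.92 in stem cells (1.92-fold, adjusted p = 0.19). Vwf, the clotting factor stored in endothelial granules, averaged 3.44 ± 0.20 in quadriceps, against 0.35 ± 0.41 in day 4 myotubes and 1.65 ± 0.27 in stem cells, and rose over both (8.49-fold, adjusted p = 7.3e-05, and 3.45-fold, adjusted p = 0.0040). Mmrn2, an extracellular partner of Cd93 and Clec14a, was 60.1-fold higher than in day 4 myotubes (adjusted p = 6.2e-07) but 1.80-fold apart from stem cells (adjusted p = 0.23). Nos3, the endothelial nitric oxide synthase, averaged 2.69 ± 0.35 in quadriceps, against 1.18 ± 1.17 in day 4 myotubes (adjusted p = 0.12), -2.49 ± 1.01 in passage 0 myoblasts (36.1-fold, adjusted p = 1.4e-05) and 1.58 ± 0.35 in stem cells (adjusted p = 0.21). Nos3 passed against day 4 with the authors' values (adjusted p = 0.0271) and against stem cells in a fit of only both groups (adjusted p = 0.0137). Rasip1 was 2.38-fold above day 4 (adjusted p = 0.059). It passed with normexp, quantile normalization, the authors' values, a slide block, array weights, only both groups or the NOD muscle added (adjusted p = 0.00216 to 0.0411). Esm1 was 7.42-fold above day 4 (adjusted p = 0.11). It passed with a replicate block, array weights, only both groups or without day 4 replicate 3 (adjusted p = 0.00338 to 0.0473).

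All 6 transcription regulators rose in quadriceps over each of the 3 cultures. Of all genes tested 14.7% rose over day 4, 22.9% over passage 0 and 25.4% over stem cells. Except for Lmo2, none of the regulators was above background in any day 4 sample. The others entered that test through quadriceps, which makes falls unlikely. Erg, an ETS factor of endothelium, was above background in every quadriceps sample at -1.67, -2.50 and -2.80 and in no culture sample, at least 2.48-fold above day 4 myotubes (adjusted p = 2.5e-04). Sox18 had levels of 1.76, 0.45 and 0.78 in quadriceps, at least 24.8-fold above day 4 myotubes (adjusted p = 6.6e-07), against -4.35, -4.79 and -2.78 in stem cells, where RD1 was below background. Sox7 had 0.36, -1.26 and -1.64 in quadriceps, against -5.68, -3.91 and -2.47 in stem cells, where cGR8 was below background, and Sox17 averaged -0.47 ± 0.38 against -3.04 ± 1.03, a difference of 2.56 ± 0.63 (adjusted p = 0.0021). E14tg2 was the highest of the lines for all 3 SOX genes. Lmo2 and Tal1, partners in blood and endothelial development, had calls that were lost when single samples were left out. Lmo2 was 3.20-fold higher than in day 4 myotubes (adjusted p = 0.015), a call lost without day 4 replicate 2 (adjusted p = 0.081) and without quadriceps replicate 1 (adjusted p = 0.056). Tal1 was 4.50-fold higher than in stem cells (adjusted p = 0.045), and that call was lost without any 1 of the 3 quadriceps samples, RD1 or E14tg2 (adjusted p = 0.0585 to 0.127) and with no filter on dim probes (adjusted p = 0.0659).

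Sorted by where they were above background, 21 members were seen in every stem cell sample, while 56.5% of all gene names were. Another 4 (S1pr1, Cd93, Emcn and Esm1) were seen in every sample of a myoblast group, and 2, Lyve1 and Erg, in quadriceps alone. A further 6, Cdh5, Tie1, Aplnr, Clec14a, Sox7 and Sox18, were seen in every quadriceps sample and in a few culture samples, and Flt4 in no muscle sample. These counts describe the detection flags that define them and are not tested. Among genes just outside the stem cell group, Tie1, Sox7, Sox18 and Aplnr were above background in 2 of 3 lines. Counting a gene as seen with 2 of 3 samples gave 25, 6 and 2 members in the first 3 classes and none with scattered signal.

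In passage 0 myoblasts 19 of the 34 members were above background on every sample, while 55.6% of all gene names were. Compared with stem cells, 6 of 25 tested members rose (Cd93, Emcn, Esm1, Icam2, Lmo2 and S1pr1) and 13 fell, with a median of -1.29. Of all 22404 genes tested 37.3% were called, 17.6% higher and 19.8% lower, with a median of -0.26. Passage 0 lay wholly above stem cells for 6 members and wholly below for 14, as in 26.4% and 36.2% of all genes tested. Esm1, a proteoglycan secreted by sprouting endothelium, had levels of 0.02, 3.47 and 3.91 in passage 0 myoblasts and no stem cell line showed it, so passage 0 was at least 137-fold higher (adjusted p = 2.6e-05). Quadriceps had 13.2-fold less Esm1 than passage 0 (adjusted p = 0.028), a call lost without passage 0 replicate 2 or 3, or any 1 quadriceps sample (adjusted p = 0.0549 to 0.112). Genes that fell included Cldn5 at -5.07 ± 0.58 against -0.58 ± 0.62 (adjusted p = 2.0e-05) and Rasip1, an effector of vessel lumen formation, at -2.61 ± 0.58 against 1.44 ± 0.45 (adjusted p = 3.0e-06). The call of Lmo2, 3.44-fold higher in passage 0, was lost without passage 0 replicate 1 (adjusted p = 0.0645), that of Flt1 without cGR8 (adjusted p = 0.0699), and that of Plvap without passage 0 replicate 1 or 3, RD1 or E14tg2 (adjusted p = 0.0774 to 0.303). Plvap, at -1.10, also fell short with normexp, quantile normalization, the authors' values, no filter, the mean of probes, its other probe and a fit of only both groups.

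The passage 0 samples differed from each other. Of 25 members above background in any of them, 18 were lowest in replicate 1, whose median was -3.22, against -1.29 and -1.94 in replicates 2 and 3. The 31 endothelial genes outside the set that were seen did not share this: 10, 8 and 13 were lowest in replicates 1, 2 and 3, with medians of 0.07, -0.42 and -0.27. Of 7 fibroblast genes above background, 6 were lowest in replicate 1 too, with medians of 0.19, 2.37 and 2.00. Leukocyte genes ran the other way: 9 of 11 were lowest in replicate 3 and none in replicate 1, with medians of 2.26, 1.30 and -0.91. Dcn, the collagen-binding decorin of fibroblasts, stood at 0.99, 4.74 and 4.25, and Tyrobp, an adaptor of myeloid cells, at 3.22, 1.95 and -0.91. Of 10 mural genes above background, 5, 3 and 2 were lowest in replicates 1, 2 and 3. The part of these other cell types in the endothelial values was not tested.

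**Figure D4:**
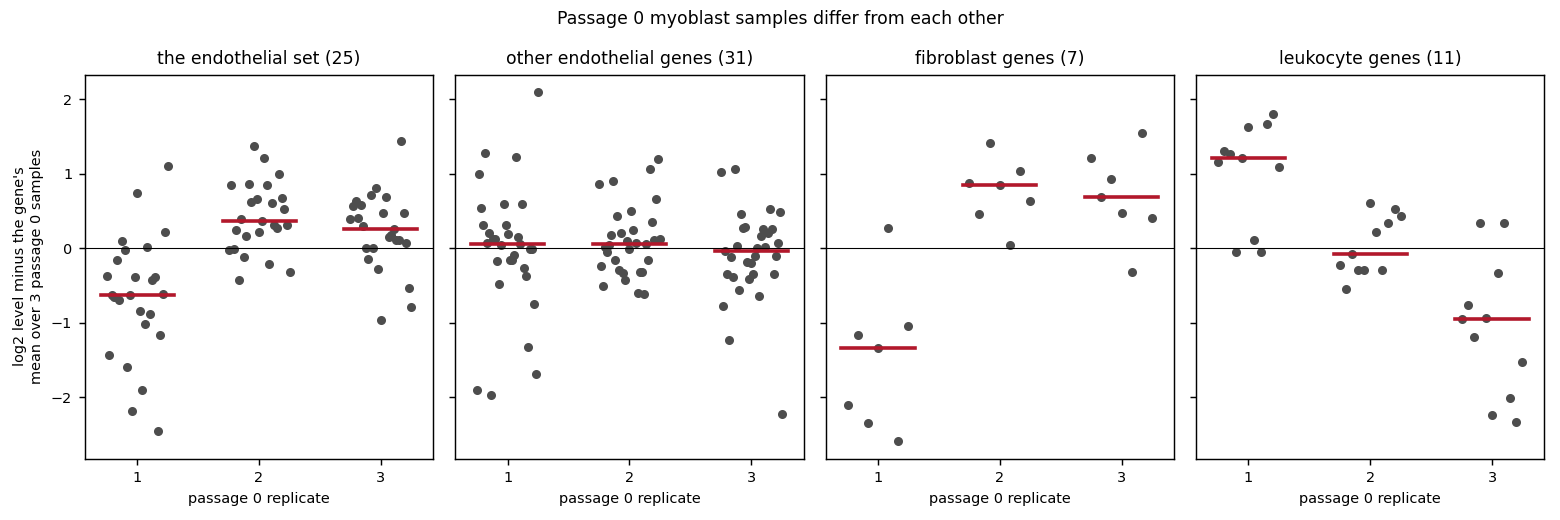
Level of each gene in each of the 3 passage 0 myoblast samples minus the gene's mean over them, for 25 of the 34 endothelial genes, 31 endothelial genes outside the set, 7 fibroblast genes and 11 leukocyte genes above background in any passage 0 sample. Points are genes and red bars are medians; replicate 1 is low for the described endothelial genes and for fibroblast genes but not for the other endothelial genes, and replicate 3 is low for leukocyte genes.

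At passages 8 to 10, 1 of 19 tested members fell from the passage 0 level, Ptprb, and none rose, while of 20352 genes tested 1.17% were called, 0.771% lower and 0.398% higher. The samples did not overlap in 5 members lower and 2 higher, as in 9.73% and 10.4% of all genes tested. Ptprb was above background in no sample of passages 8 to 10 and at least 3.14-fold lower (adjusted p = 0.019), a call lost without passage 0 replicate 2 (adjusted p = 0.117) or 3 (adjusted p = 0.081) and without passage 8 to 10 replicate 2 (adjusted p = 0.056). It was also lost with normexp (-0.98, adjusted p = 0.191), with the mean of probes (-1.76, adjusted p = 0.22) and in a fit of only both groups (adjusted p = 0.639). Emcn, seen in every passage 0 sample, was above background in none of passages 8 to 10 (adjusted p = 0.13), and it passed without the dim replicate 1 of passages 8 to 10 (adjusted p = 0.0027). Without that sample Flt1 also passed (adjusted p = 0.035), for 3 members lower.

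Myotubes moved a few members in both directions. Of 13 tested, 5 rose at day 4 over myoblasts of passages 8 to 10 and 3 fell, against 14.4% and 10.2% of 17430 genes tested (24.6% called in all). The samples did not overlap in 5 members higher and 2 lower, as in 18.1% and 13.4% of all genes tested. S1pr1 had levels of -0.15, -0.45 and 1.23 at day 1, 2.06, 0.94 and 1.84 at day 2 and 2.14, 0.48 and 1.07 at day 4, against -3.26, -2.49 and -3.18 in myoblasts of passages 8 to 10. All myotube samples were above all myoblasts, and day 4 was 18.4-fold higher (adjusted p = 2.2e-05). Nos3 averaged -0.52, 1.68 and 1.18 at days 1, 2 and 4, against -1.84 in those myoblasts (8.07-fold at day 4, adjusted p = 0.0047). Rasip1 averaged -0.31, 1.34 and 0.50, against -2.33 (7.13-fold at day 4, adjusted p = 3.4e-04). In a fit of only both groups the calls of Nos3 (adjusted p = 0.116), Rasip1 (0.0565), Icam2 (0.146), Vwf (0.16) and Esm1 (0.198) were lost. Without the dim passage 8 to 10 replicate 7 of the 8 calls held and without the dim day 4 replicate 6 did. The titles of these myoblasts and myotubes carry the same culture numbers in replicate order, and whether the samples are paired is not stated. With the replicate number as a block all 8 calls held. That block was shared by all 7 groups in the fit, so it is not a paired test of these myotubes and myoblasts.

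Cldn5, the tight junction claudin, was above background in all 9 myotube samples and in no myoblast of passages 8 to 10, at least 4.07-fold higher at day 4 (adjusted p = 9.0e-04), or at least 7.65-fold without the dim replicate of passages 8 to 10. With normexp background correction the difference was 1.11 on the log2 scale and was not called (adjusted p = 0.101). Vwf rose 2.94-fold at day 4 (adjusted p = 0.022), and that call was lost without passage 8 to 10 replicate 2 (adjusted p = 0.081) or day 4 replicate 1 (adjusted p = 0.099). Cd93 fell by 3.48 ± 0.55 on the log2 scale at day 4 (adjusted p = 1.4e-04), and 1 of 3 samples was still above background. Icam2 fell by 1.86 ± 0.51 (adjusted p = 0.011) with 1 of 3 day 4 samples above background. That call was lost without day 4 replicate 2 (adjusted p = 0.069), and the difference was -0.80 with normexp (adjusted p = 0.0994) and -0.86 with the authors' values, both under 2-fold. Esm1 fell by 4.03 ± 1.33 (adjusted p = 0.032) with overlapping groups, and its call was lost without passage 8 to 10 replicate 1 or 3 or day 4 replicate 1 or 2 (adjusted p = 0.0575 to 0.16).

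**Figure D5:**
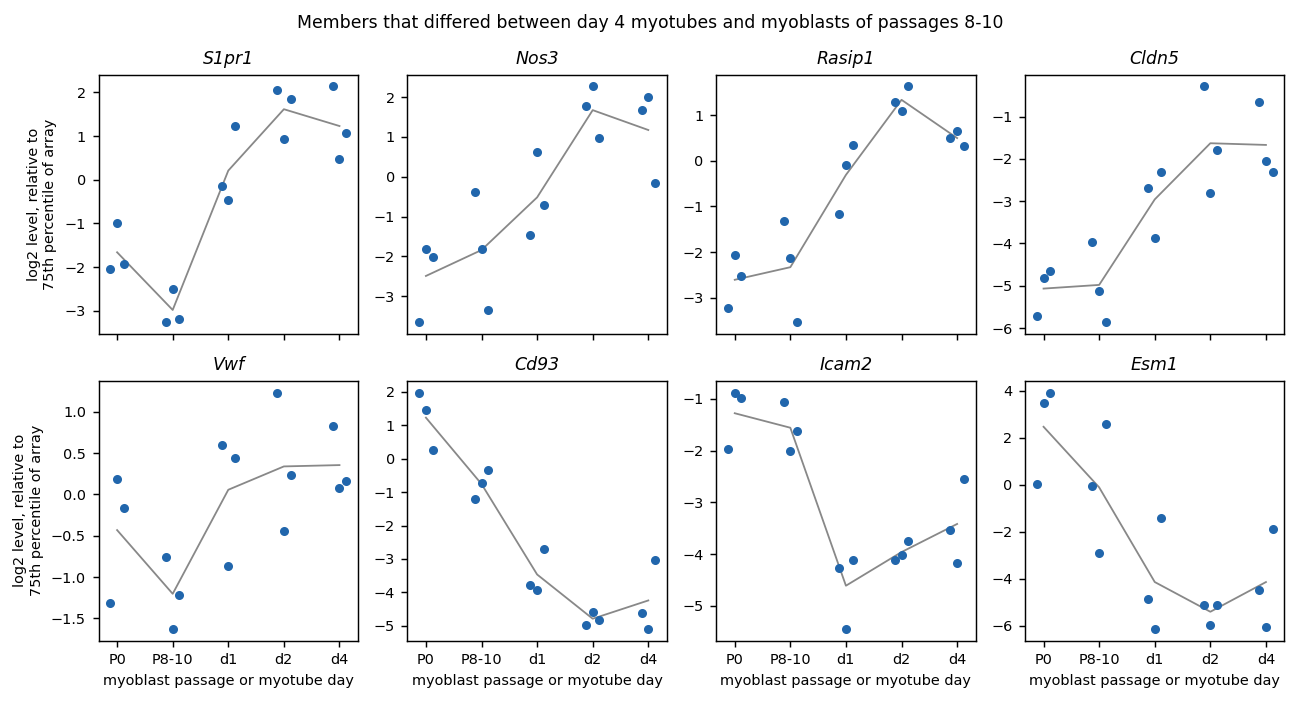
Log2 level of the 8 members called between day 4 myotubes and myoblasts of passages 8 to 10, in each of 3 samples per group, with a line through the group means. P0 and P8-10 are myoblast passages, and d1, d2 and d4 are days of differentiation. S1pr1, Nos3, Rasip1, Cldn5 and Vwf stand higher in myotubes, and Cd93, Icam2 and Esm1 lower.

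Of 13 ligands of these receptors tested, 6 rose in quadriceps over day 4 myotubes and 5 fell, with a median of 1.36. Among all genes tested 14.7% rose and 16.4% fell. Vegfa, the main ligand of Kdr and Flt1, had levels of 4.48, 3.80 and 4.14 in quadriceps, against 2.32, 2.89 and 3.12 in day 4 myotubes (2.57-fold, adjusted p = 0.023). Vegfb rose 2.79-fold (adjusted p = 0.0063), Angpt2, the antagonist ligand of Tek, at least 4.36-fold (adjusted p = 3.6e-04), and Angpt1, the agonist ligand of Tek, was 1.23-fold apart (adjusted p = 0.83). Vegfc, the ligand of Flt4, fell by 1.26 ± 0.45 on the log2 scale (adjusted p = 0.038). Apln, the ligand of Aplnr, differed by 1.39 ± 0.70 (adjusted p = 0.14).

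Of endothelial genes outside the set, 22 of 34 tested rose in quadriceps over day 4 myotubes and none fell. Their median was 3.11, and 14.7% of all genes tested rose. All 34 were above background on every quadriceps sample and only 16 on every day 4 sample, so many entered through quadriceps. Against passage 0 myoblasts 17 of 36 were higher and 5 lower (median 1.84), while 22.9% and 22.1% of all genes tested were. Against stem cells 22 of 35 were higher and 2 lower (median 2.18), while 25.4% and 29.5% of all genes tested were. In passage 0 myoblasts 14 of 31 were higher than in stem cells and 7 lower (median 0.63), while 6 of the 25 tested members rose and 13 fell. Fabp4, a fatty acid binding protein of capillaries and fat cells, stood at least 1250-fold above day 4 myotubes (adjusted p = 1.6e-09). The water channel Aqp1 was 189.5-fold higher, with 2 of 3 myotube samples above background, and the receptor Adgrf5 at least 37.8-fold. Fli1, an ETS factor of endothelium and blood cells, was at least 11.8-fold higher (adjusted p = 5.8e-06). Cd34, of endothelium and stromal precursors, had levels of 4.82, 4.52 and 4.68 in quadriceps, against -1.34, 0.14 and 1.33 in day 4 myotubes. It stood at 5.24 and 3.87 in 2 of the 3 myoblast samples of passages 8 to 10 and at 4.06 and 4.23 in passage 0 replicates 2 and 3.

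Genes of other cell types moved with quadriceps too. Against day 4 myotubes 8 of 12 mural genes rose and 1 fell. There 4 of 9 leukocyte genes, 4 of 5 red cell genes and 6 of 7 fibroblast genes rose. Among all genes tested 14.7% rose. The summed signal of the 6 red cell genes, relative to the 75th percentile of the array, was 178 to 221 in quadriceps, against 0.234 to 0.472 in day 4 myotubes. That of 8 fibroblast genes was 262 to 480, against 10.2 to 17.7, and that of the 34 endothelial genes 183 to 293, against 17.8 to 54.7. Most of the upper endothelial value in myotubes, from the dim day 4 replicate 1, was the signal of Egfl7 (4.64) and the brighter Kdr probe (3.97). Leukocyte genes summed to 46.1 to 75.4 in quadriceps, against 49.2 to 73.9 in day 4 myotubes, but most of the day 4 sum was the signal of Itgam, an integrin of myeloid cells, named after its values were seen and at 3.16 to 4.40 on the log2 scale in stem cells too. Without Itgam the other 11 summed to 15.6 to 21.8 in quadriceps, against 4.03 to 10.1 in day 4 myotubes. Tyrobp stood at least 22.2-fold higher in quadriceps (adjusted p = 6.9e-05). Mural genes summed to 65.6 to 109, against 202 to 322. Acta2, the smooth muscle actin that myoblasts also make and that was chosen after its values were seen, fell by 4.26 on the log2 scale (adjusted p = 4.4e-06). Of the defining genes of pericytes, Rgs5 was above background in no day 4 myotube sample and stood at least 151-fold higher in quadriceps (adjusted p = 2.0e-08), and Pdgfrb was 3.92 ± 0.70 higher on the log2 scale (adjusted p = 2.8e-04). Their part in the endothelial differences was not tested.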

How the data were processed

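RNA was hybridised to 23 Agilent SurePrint G3 mouse arrays on 3 slides, 21 samples in 7 groups of 3 and 1 single muscle. Per the file headers, each array was scanned in 1 colour and read with Feature Extraction 10.7.3.1, annotated on mm9, and the deposited intensity values (the processed signal) are background-subtracted and detrended within the array. The deposited 0 or 1 flags for spots well above background are the scanner software's own. The authors' deposited series table holds log2 values; its method is not given in the sources used here, its column medians were 6.76 to 6.80, its columns correlated with their own arrays at 0.954 to 0.991, and it served as an alternative.

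From the intensities, log2 of the processed signal minus the array's 75th percentile was computed without control and outlier spots. Repeated spots were averaged per probe, and the brightest probe stood for a gene. Of 55681 probes, 26582 were named through an accession, 2602 by symbol, 492 by synonym and 26005 kept the file's name. One limma fit (3.58.1, R 4.3.3) over all 7 groups gave 6 comparisons, with Benjamini-Hochberg adjustment over all genes tested. Python 3.11.15, pandas 2.3.3, numpy 2.4.6 and matplotlib 3.10.9 made the tables and figures, and the fit was tested on simulated data. The number of arrays limits the precision. Nothing in the labels says that all samples of a group came from separate animals or cultures, so the p-values reflect only how far these samples spread, which may be technical. The members and lists were chosen with earlier results of these data known. All 34 members could be named, and from other lists at most 4 called genes of largest fold against day 4 myotubes plus a set of ligands and marker genes.

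Alternatives covered background correction, normalization, the filter on dim probes, probe choice, slide and replicate blocks, array weights, the groups fitted and each replicate left out. The second probe of 8 members was tried after seeing the data, as were the leukocyte sum without Itgam and the bounds without dim arrays. Deviations of same-numbered samples from their group means correlated at 0.576, 0.081 and 0.352 between day 4 myotubes and passage 8 to 10 myoblasts and at -0.216 to 0.269 elsewhere, so the numbers were not taken to pair samples. The titles of day 4 and passage 8 to 10 samples also share culture numbers, and the fit with the replicate block is given beside that comparison.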

Additional observations from a re-analysis of the deposited data

Results flagged for a closer look

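The single NOD/ShiLtj skeletal muscle, which entered no comparison, showed a signal for the same genes. On its array 33 of the 34 members were above background, while 57.97% of all gene names were. Of the 34, 27 were higher there than on every culture sample, a count that was not made over all genes. Flt4 was again not above background. Relative to the 3 quadriceps samples, 25 members lay within their range, 4 above and 5 below, and the largest distance outside it was 0.604 on the log2 scale, for Esm1 at -2.07 against a quadriceps minimum of -1.47. The muscle of origin is not named in the labels and there was no replicate, so no test was made.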

How the results depend on the processing

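No difference that was called, in the main fit or in an alternative, changed direction between them. Differences called in neither were not checked for direction. Some members not called in the main fit passed in some alternatives, among them Rasip1, Esm1, Nos3 and Robo4. Counting only alternatives in which a gene was still tested, calls held throughout for 25 of 27 members against day 4 myotubes. They held for 27 of 31 against passage 0, 21 of 24 against stem cells and 15 of 19 between passage 0 and stem cells. They held for 0 of 1 between passages and for 2 of 8 (S1pr1 and Cd93) between day 4 and passages 8 to 10. Requiring signal above background on every sample of both groups left the other genes untested, and those were not counted as lost. Neither S1pr1 nor Cd93 was tested in that way between day 4 and passages 8 to 10. Members higher in quadriceps then came to 5 of 9 against day 4 and 17 of 19 against passage 0. Against stem cells 11 were higher and 0 lower. Between passage 0 and stem cells 2 rose and 7 fell. All genes then gave 1447 higher against day 4, 3029 lower against passage 0, 3722 lower against stem cells, and 2574 higher and 2564 lower between passage 0 and stem cells. The numbers of all genes tested in that way are not given here, so no shares stand beside these counts. Members lower in quadriceps than passage 0 ranged from 0 to 1 with a replicate left out.

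Between passages 8 to 10 and passage 0 the members lower (1) became 4 with quantile normalization, 4 with the authors' values, 8 with array weights, and 0 with signal in both groups, with the mean of probes or with only the groups compared. They ranged from 0 to 3 with a replicate left out. All genes higher (81) became 171 with normexp, 145 with the authors' values, 145 with no filter, 23 with signal in both groups, 455 with weights and 0 with only these groups (18 to 541 with a replicate left out). All genes lower (157) became 398 with quantile normalization, 367 with the authors' values, 25 with both groups, 631 with weights and 0 with only these groups (35 to 292 with a replicate left out). With a replicate block 2 members were lower, the second being Plvap, and the block added Esm1 against day 4 (adjusted p = 0.0473).

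Between day 4 and passages 8 to 10, members higher (5) became 3 with both groups and 2 with only these groups, and members lower (3) became 1 with normexp, 1 with the authors' values, 0 with both groups, 1 with only these groups and 1 to 3 with a replicate left out. All genes came to 541 higher and 394 lower with only these groups. With 2 of 3 samples counted as seen, 0 members had scattered culture signal. The causes were not tested beyond what each setting leaves out. Signals near background limit Erg, Clec14a, Tal1 and Lyve1, and the dim arrays limit passages 8 to 10 and day 4.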

Other observations

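Lymphatic genes did not share one direction. The list includes the members Flt4 and Lyve1. Of 4 genes tested against day 4 myotubes, 2 rose in quadriceps, Lyve1 among them, and 2 fell. Among all genes tested 14.7% rose and 16.4% fell. Pdpn, a mucin of lymphatic endothelium that cultured myoblasts also carried, had levels of 1.52, 1.04 and 1.63 in quadriceps, against 4.76, 3.84 and 4.70 in day 4 myotubes, and fell by 3.04 on the log2 scale (adjusted p = 6.1e-06). The summed signal of the 7 lymphatic genes was 3.69 to 5.90 in quadriceps, against 16.4 to 32.1 in day 4 myotubes. Most of the day 4 sum was the signal of Pdpn. The median log2 change of the 4 tested genes was 1.45, or 0.51 with bounds. In quadriceps itself, 19 of 33 members were lowest in replicate 3, 14 in replicate 2 and none in replicate 1, with medians of 0.93, 1.22 and 2.06. In replicates 1, 2 and 3 the lowest numbered 3, 8 and 27 for other endothelial genes, 1, 5 and 6 for mural and 0, 4 and 4 for fibroblast genes. They numbered 1, 8 and 2 for leukocyte, 5, 0 and 0 for red cell and 4, 2 and 1 for muscle genes. No such count is given over all genes. Replicate 1 is the C57BL/6J sample, and strain and sample cannot be told apart.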
